A study of Mus musculus with 12 samples.

Results

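Expression of 8 genes of the GABA system and of interneurons was followed across 12 mouse models, out of 19647 genes measured after the filter on dim probes. The 8 genes were taken by symbol from the probes whose transcript accession maps to Gad1, Gad2, Slc32a1, Gabra2, Gabra5, Pvalb, Sst, and Vip. All 8 passed the filter, and all 8 were well above background on each of the 12 arrays.

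GABA is the main inhibitory transmitter of the forebrain. It is made from glutamate by the enzymes encoded by Gad1 and Gad2 and loaded into synaptic vesicles by the transporter encoded by Slc32a1. Fast inhibition is carried by GABA-A receptors, chloride channels built of several subunits, among which the alpha subunits encoded by Gabra2 and Gabra5 are abundant in the hippocampus. Most GABA in cortex and hippocampus is released by local interneurons, whose main classes are marked by the calcium-binding protein parvalbumin (Pvalb) and by the neuropeptides somatostatin (Sst) and vasoactive intestinal peptide (Vip).

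Each array carried RNA pooled from 3 animals, and each model had 1 array, so the spread between animals is not known and no model was replicated. The cortex set held prefrontal cortex of C57BL/6 mice aged 1.5, 4, 17, and 22 months. The transgenic hippocampus set held C57BL/6 mice that overexpressed mutated human NCSTN (10 months), that overexpressed wild-type human MAPT (12 months), or that carried the 5xFAD transgenes (6 months). The ICR hippocampus set held ICR mice, bought at 7 weeks of age, that had received aggregated Aβ peptide at 5 or 10 µM or streptozotocin at 2.5 or 3 mg/kg into the lateral ventricles 14 days earlier, or scopolamine at 1 mg/kg into the peritoneum 30 minutes earlier. The promoters of the NCSTN and MAPT transgenes were not given in the sources used here, and the 5xFAD transgenes are driven by the neuronal Thy1 promoter. No transgene or injection is described for the mice of the cortex set, but hippocampus of such mice or of vehicle controls was not analysed here, so a hippocampal model was set only against other models of its set, and among the transgenic models genotype and age cannot be told apart.

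The labelled tissues were checked against marker genes. Of 10 hippocampus markers, 7 were lower in cortex than in transgenic hippocampus and 8 lower than in ICR hippocampus, with median log2 differences of -2.43 and -2.63. Of 10 cortex markers, 8 were higher in cortex in each comparison, with medians of 1.90 and 1.399. Choroid plexus markers, which belong to tissue next to the hippocampus, varied between arrays, and the log2 of their summed signal ran from 8.68 to 15.6 in cortex, from 16.7 to 17.1 in transgenic hippocampus, and from 11.7 to 17.6 in ICR hippocampus. For striatal neuron markers the same sum was 14.7 to 14.9 in cortex, 14.3 to 14.6 in transgenic hippocampus, and 13.9 to 14.2 in ICR hippocampus. The methods describe all animals as male, but Xist, the transcript of the inactive X chromosome, was well above background on all 3 transgenic arrays and on 0 of the other 9, and the Y-linked Ddx3y and Eif2s3y showed the reverse. By these genes sex differed between the transgenic arrays and the rest, and it cannot be told apart from the other differences between these sets.

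The promoters of Sst and Vip are shown because, of the 8 genes, these had the widest differences between the 5xFAD array and the other transgenic arrays. The windows hold the 150 bases before the start of transcription in RefSeq, assembly GRCm38.p6, read 5′ to 3′ on the strand of the gene. All 8 genes matched a promoter window. The cyclic AMP response element, through which neuronal activity and cyclic AMP act on many peptide genes, has the full motif TGACGTCA, which reads the same on both strands, and the shorter core motif TGACG, which the full motif holds once on each strand. Capitals mark the full motif in Sst and the core motif in Vip.

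Sst (chr16:23890845-23890994, minus strand): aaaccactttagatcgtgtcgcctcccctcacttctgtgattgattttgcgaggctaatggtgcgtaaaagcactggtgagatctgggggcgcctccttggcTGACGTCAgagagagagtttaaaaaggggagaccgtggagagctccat

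Vip (chr10:5639068-5639217, plus strand): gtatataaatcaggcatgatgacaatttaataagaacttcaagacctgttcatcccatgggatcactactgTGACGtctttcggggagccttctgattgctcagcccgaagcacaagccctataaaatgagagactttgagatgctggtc

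The full motif of Sst began 48 bases before the start. Over windows of 300 bases, from 250 before to 50 after the start, the full motif was found on either strand in 588 of 32851 promoters (1.79%) and the core motif in 20.8%. Vip held the core motif, beginning 79 bases before the start, and Gad2 held it 33 bases before the start. The windows of Gad1, Slc32a1, Gabra2, Gabra5, and Pvalb, which has a pair of windows, held neither. A match is a description of these letters and was not tied to the values below.

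Genes of GABA synthesis and vesicle loading stood at similar levels in the 3 sets. On the log2 scale of the quantile normalized signal, Gad1 was measured in cortex at 12.88, 13.20, 13.17, and 12.93 from the youngest to the oldest age. In hippocampus it was 13.13 for NCSTN, 13.22 for MAPT, 12.59 for 5xFAD, 12.84 for Aβ 5 µM, 12.72 for Aβ 10 µM, 12.63 for streptozotocin 2.5 mg/kg, 12.84 for streptozotocin 3 mg/kg, and 12.91 for scopolamine. The 5xFAD array was the lowest of the 12, and the values of the 3 sets overlapped.

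Gad2 was 12.20, 12.21, 12.54, and 12.34 in cortex by age. It was 12.54, 12.47, and 12.02 for NCSTN, MAPT, and 5xFAD. It was 12.05 for each dose of Aβ, 11.99 and 12.25 for streptozotocin at 2.5 and 3 mg/kg, and 12.34 for scopolamine. As for Gad1, the sets overlapped, and the lowest values were those of streptozotocin 2.5 mg/kg and 5xFAD.

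Slc32a1 was read by a pair of probes that did not behave alike. The brighter probe lay between 14.24 and 14.59 on all 12 arrays. The dimmer probe lay between 6.25 on the 5xFAD array and 7.66 in cortex at 22 months, and it carried most of the variation of the mean of both. That mean was 10.88, 10.92, 10.50, and 11.04 in cortex by age, 10.77, 10.69, and 10.27 for NCSTN, MAPT, and 5xFAD, and between 10.55 and 10.78 in ICR hippocampus. Statements on Slc32a1 therefore depend on the probe.

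**Figure D1:**
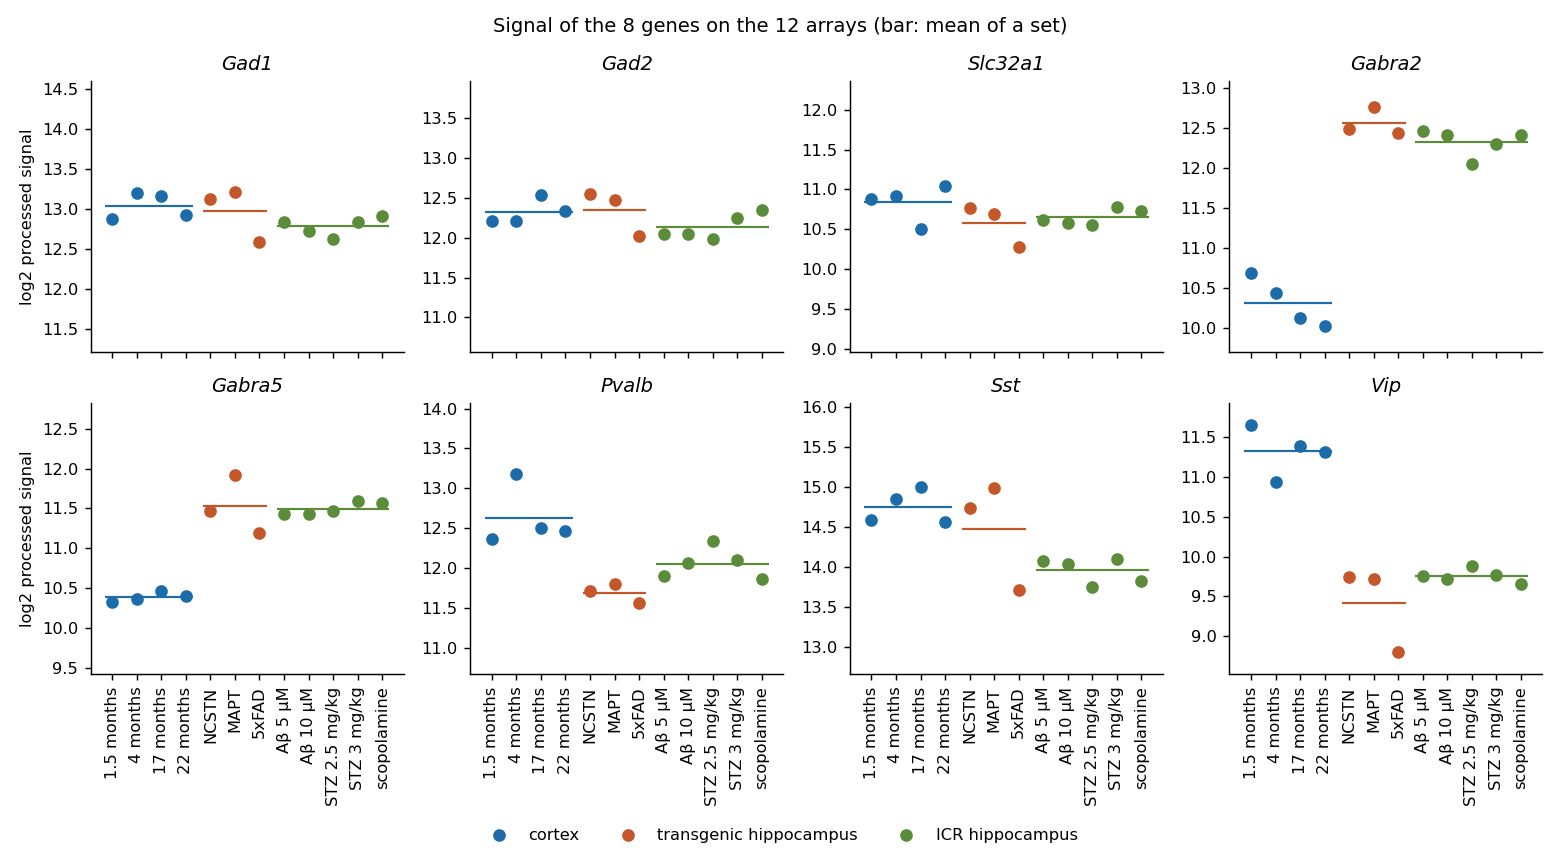
Signal of each gene (y axis, log2 processed signal after quantile normalization, the same span in every panel) on the 12 arrays (x axis), with points for arrays and a bar for the mean of each set. Gabra2 and Gabra5 sit lower in cortex than on any hippocampal array, Vip and Pvalb sit higher, and the Gad genes overlap between sets.

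The receptor subunits separated cortex from hippocampus. Gabra2, an alpha subunit found at many inhibitory synapses, was 10.68, 10.44, 10.12, and 10.02 in cortex from 1.5 to 22 months. It was 12.49, 12.76, and 12.45 for NCSTN, MAPT, and 5xFAD. In ICR hippocampus it was 12.46 and 12.42 for Aβ at 5 and 10 µM, 12.05 and 12.30 for streptozotocin at 2.5 and 3 mg/kg, and 12.42 for scopolamine. Every cortex array was below every hippocampal array, and within cortex each older array was below the younger ones.

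Gabra5, whose subunit is best known from receptors outside synapses that carry tonic inhibition in hippocampal pyramidal cells, was 10.32, 10.37, 10.47, and 10.41 in cortex by age. It was 11.47, 11.92, and 11.19 for NCSTN, MAPT, and 5xFAD. It was 11.43 for each dose of Aβ, 11.47 and 11.59 for streptozotocin at 2.5 and 3 mg/kg, and 11.57 for scopolamine. The cortex arrays again lay below all 8 hippocampal arrays, with a range of 0.147 in cortex against 0.732 in transgenic hippocampus.

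Among the markers of interneuron classes, Pvalb and Vip were higher in cortex than in both hippocampal sets, while Sst in cortex overlapped with transgenic hippocampus. Pvalb, which marks fast-spiking cells that inhibit the soma and axon of pyramidal cells, was 12.36, 13.18, 12.51, and 12.46 in cortex by age. It was 11.71, 11.80, and 11.56 for NCSTN, MAPT, and 5xFAD, and 11.90, 12.06, 12.34, 12.10, and 11.86 for Aβ 5 µM, Aβ 10 µM, streptozotocin 2.5 mg/kg, streptozotocin 3 mg/kg, and scopolamine. Its pair of probes moved together, and the array of 4-month cortex was the highest on both, at 12.07 and 14.30. The lowest cortex array exceeded the highest hippocampal array by a narrow margin, 12.36 against 12.34 for the mean of both probes. On the brighter probe alone they overlapped, with 13.44 and 13.53 in cortex at 1.5 and 22 months and 13.54 for streptozotocin 2.5 mg/kg.

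Sst, which marks cells that inhibit the dendrites of pyramidal cells, was 14.59, 14.86, 15.00, and 14.56 in cortex by age. It was 14.74, 14.99, and 13.72 for NCSTN, MAPT, and 5xFAD, so that the first and second lay within the cortex values and the third was the lowest of all 12 arrays. It was 14.07 and 14.04 for Aβ at 5 and 10 µM, 13.74 and 14.11 for streptozotocin at 2.5 and 3 mg/kg, and 13.82 for scopolamine, all below cortex. The probe of Sst was spotted 10 times on each array, and the SD of log2 signal between its 8 to 10 usable spots was 0.012 to 0.055. The lowest cortex array lay further than that above the highest ICR array, but some arrays of a set, such as those of the Aβ doses, differed by no more than it. That SD covers error within an array only.

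Vip, which marks cells that mainly inhibit other interneurons, was 11.65, 10.94, 11.39, and 11.31 in cortex by age. It was 9.74, 9.72, and 8.80 for NCSTN, MAPT, and 5xFAD. In ICR hippocampus it lay between 9.65 for scopolamine and 9.88 for streptozotocin 2.5 mg/kg. All cortex arrays exceeded all hippocampal arrays by more than 1 log2 unit, and the 5xFAD array was again the lowest.

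The sets were compared gene by gene in 1 limma fit over all 19647 genes, in which arrays of different models or ages stood as samples of a set. The spread behind each test thus holds differences between models. Cortex and transgenic hippocampus also differ in age, sex, and transgenes, and cortex and ICR hippocampus in strain, age, and procedure. Since RNA came from bulk tissue, fewer cells of a type and less RNA per cell cannot be told apart. Differences are given with the SE and the p-value adjusted over all genes. How many of all genes separate a pair of sets without overlap was not counted, so statements on overlap only describe the values.

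Cortex against transgenic hippocampus called 4 of the 8 genes, 2 higher and 2 lower in cortex, where 9.13% of all genes were called higher and 7.45% lower. Gabra2 was 4.77-fold lower in cortex, with a log2 difference of -2.25 (SE 0.165, adjusted p = 1.7e-05). Gabra5 was 2.19-fold lower, with a log2 difference of -1.13 (SE 0.142, adjusted p = 0.00045). Vip was 3.74-fold higher in cortex, with a log2 difference of 1.90 (SE 0.225, adjusted p = 0.00033), and Pvalb was 1.92-fold higher, with a log2 difference of 0.94 (SE 0.189, adjusted p = 0.0070).

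The other 4 genes were not called in that comparison. The log2 difference was 0.064 for Gad1 (95% confidence interval -0.271 to 0.399), -0.024 for Gad2 (-0.344 to 0.297), 0.257 for Slc32a1 (-0.071 to 0.585), and 0.268 for Sst (-0.298 to 0.834). The intervals leave room for a change of up to about 1.32-fold in Gad1 and 1.78-fold in Sst. With the 5xFAD array left out, the differences of Gad1 and Sst became -0.13 and -0.11, so their sign rested on that array.

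Cortex against ICR hippocampus called 5 of the 8 genes, 3 higher and 2 lower in cortex, where 18.4% and 18.1% of all genes were called. Of the receptor subunits, Gabra2 was 4.05-fold lower in cortex (log2 difference -2.02, SE 0.145, adjusted p = 5.1e-06) and Gabra5 was 2.15-fold lower (log2 difference -1.10, SE 0.125, adjusted p = 8.9e-05). Vip was 2.97-fold higher (log2 difference 1.57, SE 0.198, adjusted p = 0.00019). Sst was 1.73-fold higher (log2 difference 0.79, SE 0.225, adjusted p = 0.018), and Pvalb was 1.49-fold higher (log2 difference 0.58, SE 0.166, adjusted p = 0.019). Without the array of 17-month cortex the difference of Sst was 0.71 and its adjusted p was 0.053. Both comparisons share the 4 cortex arrays, so they are not independent.

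Gad1, Gad2, and Slc32a1 were not called against ICR hippocampus either. The log2 difference was 0.254 for Gad1 (95% confidence interval -0.040 to 0.549, adjusted p = 0.16), 0.188 for Gad2 (-0.093 to 0.470, adjusted p = 0.28), and 0.186 for Slc32a1 (-0.102 to 0.474, adjusted p = 0.30). By its column medians, the authors' deposited matrix was normalized in separate blocks, at 117 for cortex, NCSTN, and MAPT, 134 for 5xFAD, and 157 to 158 for the ICR arrays. In that matrix all 3 were called higher in cortex than in ICR hippocampus, where 27.9% of all genes were, by 0.42, 0.52, and 0.54 (adjusted p = 0.015, 0.0029, and 0.0044). When the brighter probe of Slc32a1 stood for the gene, the sign turned, to -0.014 against transgenic and -0.143 against ICR hippocampus.

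**Figure D2:**
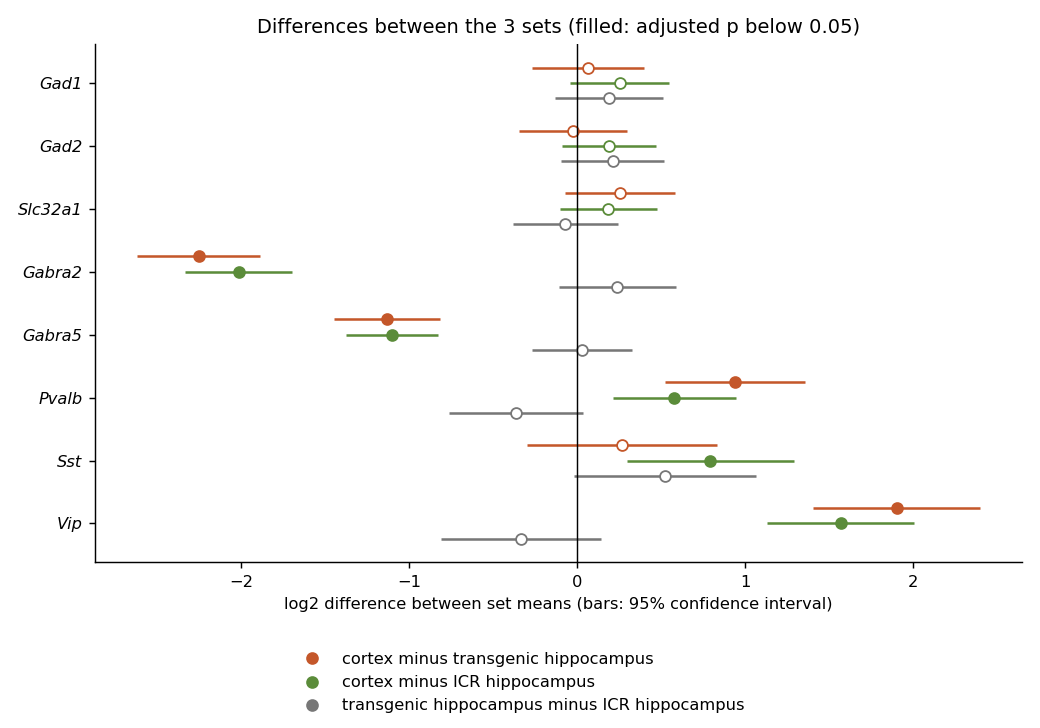
Log2 difference between set means (x axis) for each gene (y axis), with the 95% confidence interval as bars and filled points for an adjusted p below 0.05. The points of Gabra2 and Gabra5 lie below 0 for both comparisons with cortex, those of Vip and Pvalb above 0, and the intervals of the Gad genes and Slc32a1 include 0.

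The hippocampal sets, compared with each other, differed in 0 of the 8 genes by limma, where 5.22% of all genes were called higher and 6.63% lower in transgenic hippocampus. At an unadjusted p under 0.05 the counts were 0 of 8 and 5805 of 19647, or 29.5%. The widest differences were 0.525 for Sst (SE 0.245, adjusted p = 0.18) and -0.364 for Pvalb (SE 0.181, adjusted p = 0.21). The values of Pvalb did not overlap between these sets, a separation whose share over all genes was not counted. Without the 5xFAD array, 2 genes were called higher in transgenic hippocampus, Sst at 0.91 (adjusted p = 0.0050) and Gad1 at 0.38 (adjusted p = 0.049), where 7.69% of all genes were called higher. For Sst, NCSTN and MAPT lay above all 5 ICR arrays and 5xFAD lay below them.

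Within cortex, age was fitted as a slope over the 4 arrays, and 0 of the 8 genes were called by limma, as were 0% of all genes in either direction. At an unadjusted p under 0.05 the counts were 1 of 8, Gabra2, and 1035 of 19647, or 5.27%. The slope of Gabra2 was -0.0295 log2 units per month (SE 0.0067, adjusted p = 0.82), which goes with the ordered values above. The other slopes lay between -0.0131 for Pvalb and 0.0114 for Gad2. None of the 8 genes ranged over 2-fold or more in cortex, where 14.2% of all genes and 5.21% of those well above background on all arrays did. The widest cortical ranges were 0.825 for Pvalb, 0.718 for Vip, and 0.659 for Gabra2, and at 1.5-fold these 3 were counted. The share of all genes at 1.5-fold was not counted, so that count only describes the 8 genes.

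Within ICR hippocampus, the arrays of Aβ were compared with those of streptozotocin, with the doses of an agent standing for its spread. By limma 0 of the 8 genes were called, as were 0% of all genes in either direction. At an unadjusted p under 0.05 the counts were 0 of 8 and 2474 of 19647. Differences of Aβ from streptozotocin ran from -0.238 for Pvalb (95% confidence interval -0.637 to 0.161) to 0.266 for Gabra2 (-0.094 to 0.626). None of the 8 genes ranged over 2-fold or more in this set, where 20.9% of all genes and 8.62% of the brighter ones did. The ranges were 0.161 for Gabra5, 0.222 for Slc32a1, and 0.233 for Vip at the low end and 0.472 for Pvalb at the high end. All 7 choroid plexus markers ranged over 2-fold or more among the same arrays.

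Within transgenic hippocampus, Sst was the only one of the 8 genes to range over 2-fold or more, with a range of 1.27 log2 units (2.41-fold). In this set 16.7% of all genes and 11.5% of the brighter ones did so. Vip followed with 0.945, Gabra5 with 0.732, and Gad1 with 0.628. The lowest array was 5xFAD for each of the 8 genes, and the highest was NCSTN or MAPT.

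Set against the mean of NCSTN and MAPT, the 5xFAD array was lower in all 8 genes, by a median of -0.496 on the log2 scale. Over the 14018 genes well above background on all arrays the median was -0.071, and 56.4% lay below 0. The share of these genes that differed by 2-fold or more was not counted. Counts at 2-fold on this array therefore only describe the genes listed. The difference was -1.15 for Sst (2.21-fold lower), -0.93 for Vip (1.91-fold lower), and -0.58 for Gad1 (1.50-fold lower). It was -0.50 for Gabra5, -0.49 for Gad2, -0.46 for Slc32a1, -0.19 for Pvalb, and -0.18 for Gabra2. For Slc32a1 it was -0.06 with the brighter probe alone. With 1 array per model these differences have no replicate check, and the distance between NCSTN and MAPT is the only measure of spread beside them. It was 0.251 for Sst, 0.024 for Vip, 0.457 for Gabra5, and at most 0.093 for Gad1, Gad2, Slc32a1, and Pvalb. For Gabra2 it was 0.268, wider than the difference of 5xFAD.

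**Figure D3:**
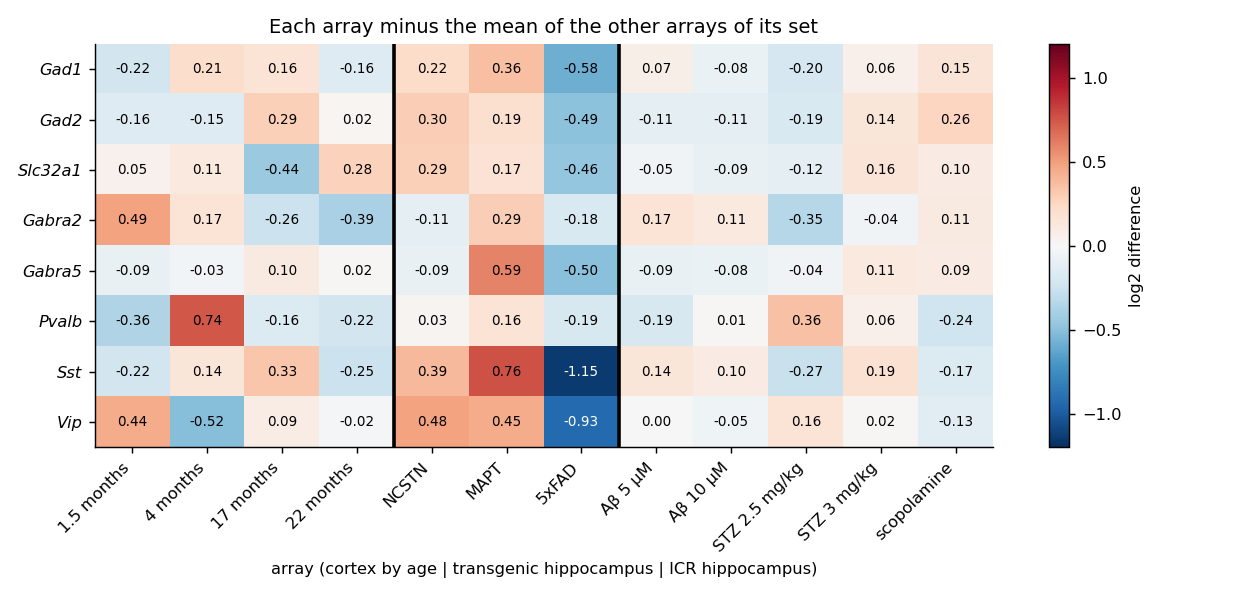
Difference of each array (x axis) from the mean of the other arrays of its set, on the log2 scale (colour and printed value), for the 8 genes (y axis). The 5xFAD column is negative in every row, down to -1.15 for Sst. The ICR columns stay between -0.35 and 0.36, and the cortex columns run from -0.52 for Vip to 0.74 for Pvalb, both at 4 months.

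Markers of other cell types moved on the same array. All 6 microglia markers were higher on 5xFAD than the mean of NCSTN and MAPT, with a median difference of 0.938, and 3 of them by 2-fold or more. The log2 of their summed signal was 13.3 on the lowest array, MAPT, and 14.6 on 5xFAD. Medians were 0.441 for 6 oligodendrocyte markers and 0.330 for 6 astrocyte markers, with 1 of 6 below 0 in each list. They were -0.121 for 8 pan-neuronal and -0.207 for 8 excitatory neuron markers. Among the region markers, the median was -0.664 for 10 cortex markers, with 9 below 0. It was -0.506 for 10 hippocampus markers, with 7 below 0. For 10 striatal neuron and 6 thalamus markers it was -0.051 and -0.111. A lower level on 5xFAD was thus not particular to the 8 genes. Their part in the lower level of the 8 genes was not tested.

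Other genes of the interneuron classes were read from lists that hold Sst, Vip, and Pvalb themselves. Of 7 somatostatin cell genes, 4 were well above background on every array. All 4 were below 0 on the 5xFAD array, where 56.4% of genes well above background on all arrays were. Of the 4, 3 were lower by 2-fold or more, Sst itself among them, and the share over all genes was not counted. The rest of the 7, Chodl, Elfn1, and Pdyn, were well above background on 1 or 2 arrays and have no measured level on most. Besides Sst, Grin3a, a subunit of NMDA receptors, was 8.74 and 8.45 for NCSTN and MAPT and 7.27 for 5xFAD. Crhbp, which binds corticotropin-releasing hormone, was 10.28, 9.86, and 8.87. With the 3 dim genes included, 7 of 7 were below 0 and 4 were 2-fold or more lower, with a median of -1.15. With normexp background correction these became 6 of 7, 2, and -0.452, and without the MAPT array 5 of 7 were below 0.

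Of 14 genes of Vip cells and related classes, 12 were below 0 on 5xFAD, with a median of -0.403. The exception at 2-fold or more was Igf1, a growth factor that microglia also make, at 8.42 on 5xFAD against 6.42 and 6.37. Of 9 parvalbumin cell genes, 7 were below 0, with a median of -0.322, and 6 of the 7 well above background on all arrays were, with a median of -0.551. Tac1, the precursor of substance P, was 9.74 against 10.68 and 10.80, a difference of -0.998. Cox6a2, a subunit of cytochrome c oxidase, differed the other way by 0.955. Of 16 transcription factors of the interneuron lineage, 12 were below 0, with a median of -0.246. Dlx6, which specifies GABA neurons with its paralogs, differed by -0.98.

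Between regions, the same lists split by gene. Among the 14 Vip and related genes 5 were higher in cortex in each comparison, and 2 and 3 were lower. Of all genes 9.13% and 18.4% were called higher against transgenic and ICR hippocampus, and 7.45% and 18.1% lower. Lamp5, which marks neurogliaform cells and is also among the cortex markers, was higher by 3.07 and 3.21 against transgenic and ICR hippocampus (adjusted p = 7.4e-05 and 8.3e-06). Crh, the corticotropin-releasing hormone gene, was higher by 2.75 and 1.85, and Npy, the neuropeptide Y gene, by 1.27 and 1.92. Lower in cortex were Calb2, the calretinin gene, by -1.65 and -2.19, and Sncg, the gamma-synuclein gene, by -1.41 and -0.998, while Ndnf was lower against ICR hippocampus at -0.91. The median of the 14 genes was 0.029 and 0.352, beside medians over all genes of 0.035 and -0.014.

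Among the 9 parvalbumin cell genes, 4 were higher in cortex than in transgenic and 5 higher than in ICR hippocampus, and 0 were lower. Erbb4, among the 5, was well above background on 1 array only, which leaves 4. Of all genes 9.13% and 18.4% were called higher in these comparisons. Tac1 was higher in cortex by 1.03 and 1.07 (adjusted p = 0.027 and 0.0055). Cox6a2 was higher by 1.79 against ICR hippocampus (adjusted p = 0.00027) and by 0.84 against transgenic hippocampus (adjusted p = 0.060). Pthlh was higher by 0.87 against transgenic hippocampus (adjusted p = 0.0093). The medians were 0.710 and 0.537. Beside this, 2 of 10 striatal neuron markers were higher in cortex than in transgenic hippocampus and 6 higher than in ICR hippocampus, with medians of 0.495 and 0.863, and their part in these differences was not tested.

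Among the 7 somatostatin cell genes, 1 was higher and 1 lower in cortex in each comparison, where 9.13% and 7.45% of all genes were called against transgenic and 18.4% and 18.1% against ICR hippocampus, so 1 of 7 is near the share over all genes. Nos1, the neuronal nitric oxide synthase gene, was lower in cortex by -1.28 and -1.77 (adjusted p = 0.032 and 0.0013). The gene higher against ICR hippocampus was Sst, and that against transgenic hippocampus was Pdyn, which was above background on 1 array only. Of the 16 lineage factors, 2 were lower in cortex than in transgenic and 3 lower than in ICR hippocampus, with 0 higher. Of all genes 7.45% and 18.1% were called lower, so 3 of 16 is near the share over all genes. Prox1, which also marks dentate granule cells, was lower by -2.73 and -2.87, and Nr2f2, a factor of caudal ganglionic interneurons, by -2.42 and -2.33.

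The 19 GABA-A receptor subunit genes gave the wider frame for Gabra2 and Gabra5. In each comparison 6 of the 19 were higher in cortex and 2 were lower, and the 2 were Gabra2 and Gabra5. Of all genes 9.13% and 18.4% were called higher against transgenic and ICR hippocampus, and 7.45% and 18.1% lower. Gabrd, the delta subunit of extrasynaptic receptors, was higher in cortex by 2.08 (adjusted p = 4.8e-05) and 1.39 (adjusted p = 9.3e-05). Its cortical arrays lay between 13.06 and 13.27, against 10.83 to 11.39 in transgenic and 11.49 to 12.22 in ICR hippocampus. Gabra3 was higher in cortex by 1.51 and 1.36 (adjusted p = 0.0029 and 0.0010). The alpha subunits thus took both directions, with Gabra3 higher and Gabra2 and Gabra5 lower in cortex. The median of the 19 was 0.358 and 0.059. Gabre and Gabrq were not well above background on any array, and Gabra6, Gabrp, and Gabrr3 on 1 or 2. Over the 14 subunits that were so on all arrays, the median was 0.401 and 0.324.

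**Figure D4:**
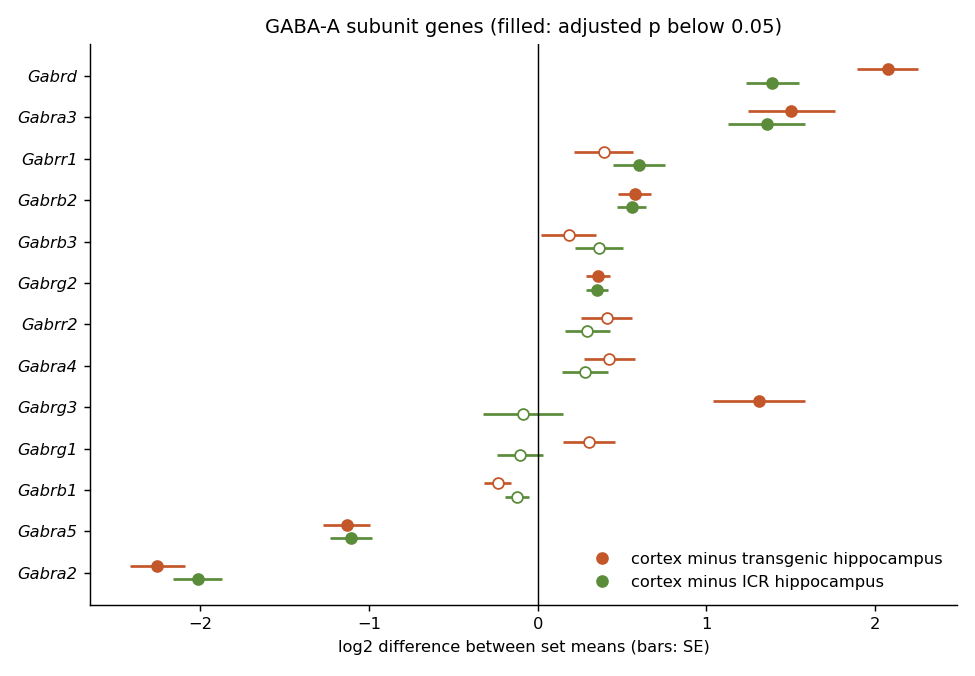
Log2 difference of cortex from each hippocampal set (x axis, bars for SE) for 13 of the GABA-A subunit genes that were well above background on all 12 arrays (y axis), with filled points for an adjusted p below 0.05. Gabrd and Gabra3 lie to the right of 0 and Gabra5 and Gabra2 to the left in both comparisons, while Gabrg3 separates the comparisons.

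Gabrg3, a gamma subunit, differed between the hippocampal sets, and with it from cortex. It was 5.66 and 5.65 for NCSTN and MAPT and 4.47 for 5xFAD, against 6.41 to 6.86 in ICR hippocampus and 6.30 to 6.87 in cortex. The difference of transgenic from ICR hippocampus was -1.401 (adjusted p = 0.0080), and Gabrd differed the same way at -0.68 (adjusted p = 0.029). On the 5xFAD array 12 of the 14 subunit genes well above background on all arrays lay below the mean of NCSTN and MAPT, with a median of -0.538, and Gabra3 and Gabrg3 were 2-fold or more lower, at -1.15 and -1.18. Gabra3 was 8.16 on 5xFAD against 9.45 and 9.16.

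Among the 6 GABA-B receptor genes, which encode the slow metabotropic receptor and its auxiliary subunits, 1 was lower in cortex and 0 higher in each comparison. It was Kctd12, at -1.37 and -1.53 (adjusted p = 0.00014 and 1.2e-05). Of all genes 7.45% and 18.1% were called lower, so against ICR hippocampus 1 of 6 is near the share over all genes. Gabbr2, which encodes the receptor chain that couples to G proteins, was 8.93 and 8.78 for NCSTN and MAPT and 7.34 for 5xFAD, a difference of -1.51. Kctd8 was lower by -1.03. Of the 6 genes, 5 were below 0 on that array, with a median of -0.584.

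Genes of GABA uptake and breakdown gave 0 calls against transgenic hippocampus and 2 genes of 6 lower in cortex than in ICR hippocampus, where 18.1% of all genes were. These were Abat, the GABA transaminase gene, at -0.43 (adjusted p = 0.0024) and Aldh5a1, which completes the breakdown to succinate, at -0.55 (adjusted p = 0.0059). Of 9 genes of the inhibitory postsynapse and of chloride balance, 1 was higher in cortex than transgenic hippocampus, and 1 higher and 4 lower than ICR hippocampus. The shares of all genes called in these directions were 9.13%, 18.4%, and 18.1%. Slc12a5, which encodes the chloride extruder KCC2 of mature neurons, was higher by 0.37 against transgenic (adjusted p = 0.039) and lower by -0.29 against ICR hippocampus (adjusted p = 0.032). It was also lower in transgenic than in ICR hippocampus, at -0.66 (adjusted p = 0.0032). Slc12a2, which encodes the chloride importer NKCC1 and is abundant in choroid plexus, was lower in cortex than ICR hippocampus at -1.21 (adjusted p = 0.013). Against transgenic hippocampus it was not called, at -0.97 (adjusted p = 0.096). Of choroid plexus markers, 4 of 7 were lower in cortex in each comparison, with medians of -4.29 and -4.15. Within transgenic hippocampus Slc12a2 was highest on 5xFAD and lowest on MAPT. The summed choroid plexus signal was the reverse, as was Ttr, the brightest of these markers. Most of the markers went the other way. Of the 7, only 2 were below the mean of NCSTN and MAPT on 5xFAD, and their median difference was 0.672. The part of choroid plexus markers was not tested. On the 5xFAD array, 2 of the 6 uptake and breakdown genes were below the mean of NCSTN and MAPT, with a median difference of 0.343. Of the 9 postsynapse and chloride genes 5 were below it, with a median of -0.0023.

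How far the 8 genes moved together was described by Pearson's correlation over the 12 arrays after the mean of each set was subtracted. The points share arrays, pools, and normalization, and the 5xFAD array lies far out for several genes, so no test is given. The highest correlations were 0.898 for Gad1 with Sst, 0.779 for Gabra5 with Sst, and 0.777 for Gad1 with Gad2. Gabra2 and Pvalb stood apart, with correlations of at most 0.308 to any of the others. The lowest was -0.186 for Pvalb with Vip.

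The genes most like each member by the same measure, among genes well above background on all arrays, came from many functions. For Gad1 they were Tmx2 (0.978) and Clpb (0.969), and for Gad2 they were Rae1 (0.974) and Dlx1 (0.958), the latter a factor of the interneuron lineage. Slc32a1 was closest to Lrrc59 (0.960) and Slc30a9 (0.959), Gabra2 to Csgalnact2 (0.917) and Slc39a12 (0.890), and Gabra5 to Gpr3 (0.957) and Niban3 (0.930). Pvalb was closest to Larp4 (0.968) and Cdh9 (0.948), Sst to Clns1a (0.990) and Obi1 (0.960), and Vip to Bhlhe22 (0.949) and Arntl (0.947). These are the extremes of 14018 genes over 12 arrays and are named as a description only.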

How the data were processed

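Expression was measured on single-colour Agilent Mouse Whole Genome 44K arrays, 12 in all. The authors deposited spot intensity values of the scanner software, not normalized between arrays, and a matrix of their processed intensity values. Arrays held 43020 spots for 39429 probes, with 110 to 234 outlier spots left out and 0 saturated. From 63.5% to 75.8% of probes were well above background. Precision is limited by how few arrays there are.

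Following the authors' methods, 36519 probes were retained that reached 1.4 times the local background on each of the 12 arrays, and log2 of the deposited processed signal was quantile normalized. Probes matched to genes by accession through RefSeq's GRCm38.p6 table (69.8%) were averaged per gene. Sets were compared with limma 3.58.1 in R 4.3.3 (threshold 0.05 after Benjamini-Hochberg adjustment), other steps used Python 3.11.15, and the fits were tested on simulated data. Within sets a range of 2-fold was counted.

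The members and gene lists were chosen with earlier results of these data known. The 8 members were described in full. Of each list, at most the 3 widest called differences and the 3 widest ranges of 2-fold or more were named, and for each member the 2 most alike genes. Ndnf falls outside that rule and was picked once values were known. Some genes that the rule covers are left out of the text. The lists of pan-neuronal, thalamus, and other tissue markers served as checks. The thalamus list had 3 and 4 of 6 genes lower in cortex.

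Alternatives were scaling to the 75th percentile, normexp (offset 50) on the median foreground, other filters, the brightest probe, an intensity trend, the deposited matrix, old against young ages, a 1.5-fold range, and each array left out. Counts of genes below 0 on the 5xFAD array under these settings, and list values over genes well above background on all arrays, were added after seeing the data.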

Additional observations from a re-analysis of the deposited data

How the results depend on the processing

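All 9 calls between cortex and hippocampus kept their direction under every setting, and 1 was lost, that of Sst without 17-month cortex (adjusted p = 0.053). With the deposited matrix, 6 members were higher in cortex than in ICR hippocampus in place of 3, while the share over all genes went from 18.4% to 27.9%. With it, 4 members were higher in transgenic than in ICR hippocampus in place of 0, and the share over all genes went from 5.22% to 20.1%. Leaving out arrays gave 0 to 2 in the latter, and 2 came without 5xFAD. At 1.5-fold, 3 members ranged that far in cortex in place of 0 and 4 in transgenic hippocampus in place of 1. Shares over all genes at 1.5-fold were not counted. At 2-fold, leaving out arrays gave 0 to 1 in transgenic hippocampus, with 0 without 5xFAD. Over all genes, Aβ against streptozotocin called 0 genes, but 53 higher with the 75th percentile, 237 higher and 12 lower with normexp, 68 and 4 with the flag filter, 134 and 11 with the matrix, and 1 with an intensity trend. Transgenic against ICR hippocampus called 520 higher and 543 lower without MAPT, in place of 1025 and 1302, and 3582 and 4043 with the matrix. All 8 members stayed below 0 on 5xFAD under each setting run, the matrix included, in which the authors normalized 5xFAD apart from NCSTN and MAPT.

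The sign turned for some differences that were called neither before nor after, up to -0.364 for Pvalb between the hippocampal sets. For cortex against transgenic hippocampus Gad2 became 0.032 with the 75th percentile and 0.085 with normexp, and Slc32a1 -0.014 with its brighter probe (-0.143 against ICR hippocampus). Leaving out arrays gave -0.130 to 0.184 for Gad1, -0.186 to 0.075 for Gad2, and -0.114 to 0.522 for Sst. For transgenic against ICR hippocampus, Slc32a1 was 0.309 and Pvalb 0.089 with the matrix, and Gabra5 -0.023 with the 75th percentile. Leaving out arrays gave -0.167 to 0.083 for Slc32a1 and -0.169 to 0.197 for Gabra5. For the age slope, Gad1 was 0.0013 with the 75th percentile and Slc32a1 0.0038 with its brighter probe, while old minus young ages differed by 0.0050 for Gad1 and 0.055 for Vip. Leaving out arrays gave slopes of -0.013 to 0.012 for Gad1, -0.027 to 0.0077 for Slc32a1, -0.042 to 0.0062 for Pvalb, -0.011 to 0.021 for Sst, and -0.017 to 0.024 for Vip. For Aβ against streptozotocin, Gad1 was -0.0085 with the 75th percentile and -0.013 with the matrix, and leaving out arrays gave -0.055 to 0.157 for Gad1, -0.201 to 0.062 for Gad2, -0.179 to 0.043 for Slc32a1, and -0.050 to 0.312 for Sst. The cause was not tested in any of these. Slide or scan as a block was not run, since the scanner tables used here hold neither, and normexp used the median foreground because they hold no mean. No paired analysis was possible because each model had 1 array and no replicate numbers are shared.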

Other observations

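A pair of GABA transporter genes, Slc6a12 and Slc6a13, varied more among the ICR arrays than within the other sets. Slc6a12, which carries GABA and betaine, was 11.13 and 10.18 for Aβ at 5 and 10 µM, 6.37 and 8.28 for streptozotocin at 2.5 and 3 mg/kg, and 7.57 for scopolamine, a range of 4.76 log2 units. Slc6a13, a GABA transporter of meninges and blood vessels, was 12.57 and 12.05, then 9.21 and 10.68, and 9.89, a range of 3.35. Neither was called for Aβ against streptozotocin by limma with quantile normalization. The summed choroid plexus markers were also lowest for streptozotocin 2.5 mg/kg, at 11.7, and highest for Aβ 10 µM, at 17.6, and their part was not tested.

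Slc6a11, the GABA transporter of astrocytes, was 9.49, 10.26, 9.14, and 8.51 in cortex at 1.5, 4, 17, and 22 months, a range of 1.76 that no member reached in cortex. Tac2, the neurokinin B gene, had a range of 2.12 among the ICR arrays. Each array is a single pool, so these ranges have no replicate check.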
